A study of Mus musculus with 4 samples.

Results

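The S100 and annexin calcium-binding genes described here are S100a1, S100a4, S100a6, S100a10, S100a11, S100a13, S100b, Anxa1, Anxa2 and Anxa5. They are 10 of the 53703 features of the count tables, chosen by symbol, and they were chosen with their difference between mutant and control libraries in view. Their values between genotypes are therefore a description and carry no test, whereas their levels among the cell types of control bone were tested.

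Stromal cells of metaphyseal femur and tibia had been profiled by droplet scRNA-seq in 4 libraries from mice aged 12 weeks on a C57/BL6 background, of both sexes. In the 2 Lats2iECKO libraries, floxed Lats2 alleles had been recombined by tamoxifen-induced Cre-ERT2 under the endothelial Cdh5 promoter, and an endothelial reporter transgene had been bred into the mutant line and its controls. The 2 control libraries came from littermates without Cre; the study's methods state that controls received the same tamoxifen, whereas the deposited label calls them untreated. Bones were digested with collagenase, and lineage-positive, CD45-positive and CD117-positive cells had been depleted with beads. Nothing in the labels says how many animals entered a library, so the spread between 2 libraries of a group may in part be technical, and sex was not given per library.

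S100 proteins are small EF-hand proteins that mostly work as dimers, change shape when they bind calcium and then dock onto partner proteins. Annexins bind the acidic phospholipids of membranes when calcium rises, and several carry an S100 dimer: S100a10 pairs with Anxa2 in a complex that gathers plasminogen and its activator at the surface of ECs, and S100a11 pairs with Anxa1. S100a4 is widely used as a marker of fibroblasts and binds the heavy chain of non-muscle myosin, and S100a6, also called calcyclin, is high in fibroblasts and proliferating cells.

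On GRCm39, the build of the count tables, 6 of the members lie among the 15 protein-coding S100 genes that the GENCODE M39 annotation places on chromosome 3 between 90416091 and 93474510. S100a4 spans 90511074 to 90513354 there and S100a6 lies close by, from 90520140 to 90535843. S100a11 (93414382 to 93435293) and S100a10 (93462213 to 93474510) are neighbours at the far end. S100a1 (90418340 to 90421848, minus strand) lies inside S100a13 (90416091 to 90431912, plus strand). Anxa5 is also on chromosome 3, from 36503072 to 36530126, while Anxa2 is on chromosome 9 from 69360542 to 69399077, Anxa1 on chromosome 19 from 20350792 to 20368374 and S100b on chromosome 10 from 76085090 to 76097159.

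The 250 bases in front of the start of the Ensembl canonical transcript of S100a6, S100a10, S100a11 and Anxa2 are printed because these genes had some of the largest differences between genotypes in ECs and include both partners of the Anxa2 and S100a10 complex. They run 5′ to 3′ on the coding strand, from chr3:90519890-90520139, chr3:93461963-93462212, chr3:93427427-93427676 and chr9:69360652-69360901, all on the plus strand of GRCm39. The canonical transcripts of S100a11 and Anxa2 start inside the gene spans given above, which reach further upstream through other transcripts. Capitals mark matches to the AP-1 motif TGANTCA, which reads alike on both strands.
S100a6: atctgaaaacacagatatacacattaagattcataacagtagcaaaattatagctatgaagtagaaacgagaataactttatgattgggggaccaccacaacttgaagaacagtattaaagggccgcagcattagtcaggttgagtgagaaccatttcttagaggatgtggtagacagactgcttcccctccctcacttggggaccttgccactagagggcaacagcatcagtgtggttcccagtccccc
S100a10: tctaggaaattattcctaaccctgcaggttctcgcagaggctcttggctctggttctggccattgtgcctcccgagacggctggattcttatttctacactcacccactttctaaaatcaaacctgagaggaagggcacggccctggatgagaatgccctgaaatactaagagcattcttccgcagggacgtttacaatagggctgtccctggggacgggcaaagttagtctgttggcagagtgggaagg
S100a11: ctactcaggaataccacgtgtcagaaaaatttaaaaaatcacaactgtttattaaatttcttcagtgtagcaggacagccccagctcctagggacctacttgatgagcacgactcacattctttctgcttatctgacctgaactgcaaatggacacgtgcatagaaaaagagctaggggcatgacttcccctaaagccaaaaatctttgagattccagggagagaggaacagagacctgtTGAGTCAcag
Anxa2: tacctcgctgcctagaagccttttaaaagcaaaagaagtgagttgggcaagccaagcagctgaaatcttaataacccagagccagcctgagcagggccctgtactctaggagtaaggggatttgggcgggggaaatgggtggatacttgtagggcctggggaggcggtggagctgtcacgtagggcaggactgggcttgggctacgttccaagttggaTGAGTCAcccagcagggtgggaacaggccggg
TGANTCA was found in 2 of the 10 members' windows, S100a11 and Anxa2, against 6.17% of the 21770 windows of all protein-coding genes. The TEAD motif GGAATG, searched on both strands, was in none of the members' windows and in 12.1% of all, and the CArG box to which SRF binds was in none and in 1.4% of all. A match is a run of letters and not a bound site, and these windows hold no distal elements.

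Cells were assigned to classes by marker genes in barcodes with at least 1000 UMIs and 800 detected genes, which left 27707 barcodes. The study's further filters on mitochondrial and hemoglobin UMIs and on complexity left 24599, of which 18666 fell into ECs, bone mesenchymal stromal cells (BMSCs), osteoblasts (OBs), chondrocytes (CHOs), smooth muscle cells (SMCs) and fibroblasts. The libraries hold between 69636600 and 85899079 UMIs and shared between 6 and 16 barcodes pairwise. Each class had its own markers far above those of other classes, except that fibroblasts also carried chondrocyte markers, summing to between 11465 and 13064 CPM (the UMIs of a gene over all UMIs of the summed cells, scaled to a common total) beside 46376 to 55231 CPM of fibroblast markers. In ECs Lats2 stood at 92.8 and 97.1 CPM in the mutant libraries and at 134 and 123 CPM in the controls (log2 fold change −0.37, edgeR adjusted p = 9.07e-04). Cre-ERT2 had 54.4 and 48.8 CPM in mutant ECs and 0.681 and 0.890 CPM in control ECs, so both checks go with the labels. Reads from any exon or intron were counted, and a Lats2 transcript without its floxed exons is still included.

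Before the genotypes were set side by side, the levels of the members were compared among the 6 classes of the control libraries, to see which cells of normal bone use which member. Fibroblasts had the highest mean level of 7 of the 10 genes, CHOs that of S100a1 and S100b, and SMCs that of S100a11. For 8531 genes, ECs were tested against every other class in edgeR by quasi-likelihood, with the library as a block. Calls needed a log2 difference of 1 or more in size and an adjusted p (Benjamini-Hochberg) no larger than 0.05.

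The mean levels of S100b and S100a1 were lowest in ECs, and that of Anxa1 was lower only in OBs. S100b, known from glia and cartilage, had 7.32 and 8.90 CPM in control ECs, 231 and 217 CPM in CHOs and 123 and 134 CPM in BMSCs. It was lower in ECs than in CHOs by a log2 difference of −5.15 (standard error 0.0982, edgeR adjusted p = 3.42e-15), and lower than in BMSCs by −3.97 (edgeR adjusted p = 2.03e-13), but was not called against SMCs (log2 difference −0.68, edgeR adjusted p = 0.0504). Schwann-gated cells, of which each library held 13 to 36, had the highest S100b values of any gate, 471 and 417 CPM in controls. S100a1, best known from heart muscle, stood at 34.9 and 36.3 CPM in ECs, with a log2 difference of −2.85 to CHOs (edgeR adjusted p = 2.63e-13). Its level in BMSCs, 40.8 and 42.8 CPM, was not called different (log2 difference −0.21, edgeR adjusted p = 0.0763). Anxa1, a ligand of formyl peptide receptors that dampens inflammation, was 88.2 and 103 CPM in ECs and 668 and 650 CPM in fibroblasts.

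S100a4 and S100a6 ordered the classes alike at the top. S100a4 had 2452 and 2187 CPM in control fibroblasts, 419 and 643 CPM in SMCs, 89.5 and 107 CPM in ECs, and 9.17 and 17.9 CPM in BMSCs. The 2 SMC values differ by more, as a ratio, than those of fibroblasts or ECs. ECs were lower than fibroblasts by a log2 difference of −4.87 (edgeR adjusted p = 1.32e-12) and higher than BMSCs by 2.88 (edgeR adjusted p = 2.47e-08). S100a6 fell from 5362 and 4889 CPM in fibroblasts over 2078 and 2416 CPM in SMCs to 623 and 681 CPM in ECs. OBs were lowest, with 106 and 124 CPM, and ECs exceeded them by a log2 difference of 1.73 (edgeR adjusted p = 4.67e-11).

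The genes of the Anxa2 and S100a10 complex were both at intermediate levels in ECs and both low in SMCs. Anxa2 stood at 421 and 434 CPM in ECs, at 401 and 422 CPM in CHOs and at 170 and 196 CPM in SMCs. The values of ECs and CHOs overlap, with the mean of ECs the higher in CPM, whereas the log2 difference fitted after TMM scaling was −0.30, of the other sign and under 1 in size. S100a10 had 338 and 347 CPM in ECs and 80.8 and 80.1 CPM in SMCs, a log2 difference of 1.94 (edgeR adjusted p = 5.02e-11). The values of S100a11 ran otherwise, with 553 and 603 CPM in SMCs, 579 and 577 CPM in BMSCs and 198 and 214 CPM in ECs. Those of SMCs and BMSCs overlap, as do those of SMCs and OBs for S100a1, of OBs and BMSCs for S100a4 and of BMSCs and fibroblasts for S100b. Apart from these and Anxa2 in ECs and CHOs, neighbours in the order of the classes did not overlap in CPM. That order depends on the scale. With TMM scaling ECs were lower than CHOs for S100a6 (log2 difference −0.25, edgeR adjusted p = 0.00632). They were lower than OBs for Anxa5 (−0.66, edgeR adjusted p = 1.38e-09) and S100a11 (−0.17, edgeR adjusted p = 0.00704). ECs were higher in CPM in each case, and none of the 3 was called, since each log2 difference was under 1 in size. S100a13, which takes part in the export of Fgf1, was second highest in ECs, with 332 and 353 CPM after fibroblasts with 435 and 420 CPM. Anxa5, which binds exposed phosphatidylserine, was 266 and 281 CPM in ECs and lay between 216 and 825 CPM across all classes and control libraries.

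Of the 10 members, 3 were called higher and 3 lower in ECs than in BMSCs, where 15.6% and 16.2% of all genes were called. Against OBs 4 were higher and 2 lower (20.1% and 20.9% of all genes), and against SMCs 3 were higher and 5 lower (16.9% and 16.2%). Against CHOs none was higher and 3 were lower (19.9% and 21.2%), and against fibroblasts none was higher and 8 were lower (18.2% and 19.1%). The 2 members not called against fibroblasts were S100a11 and S100a13, with log2 differences of −0.88 and −0.62. Both are under 1 in size (edgeR adjusted p = 3.62e-09 and 3.61e-08). No setting with a single control library could be tested, since it leaves no spread to estimate.

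**Figure D1:**
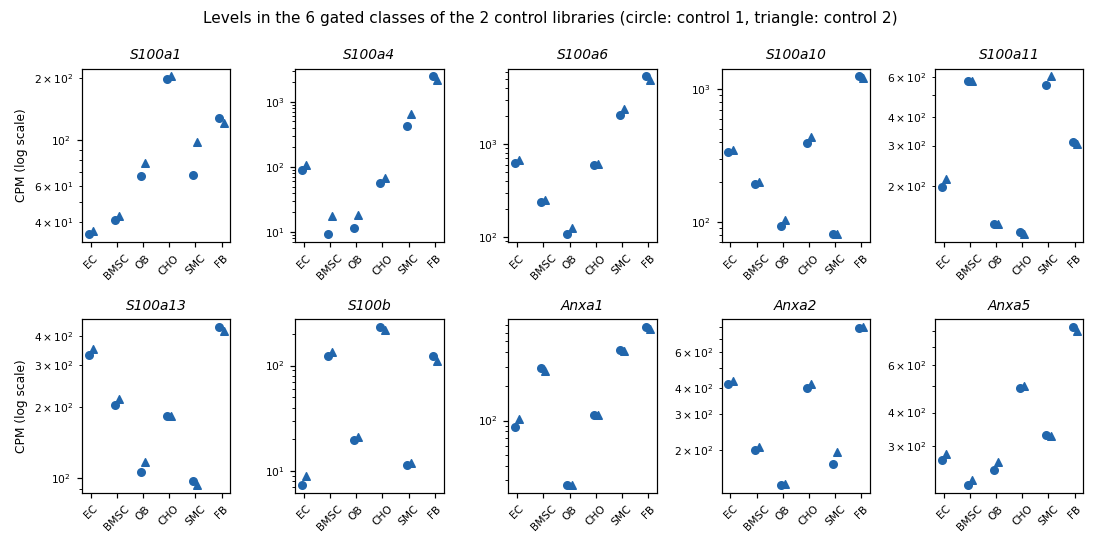
Level of each member in the 6 gated classes of the 2 control libraries, in CPM of the summed cells on a log axis; each panel has its own axis, and circles and triangles are the libraries. Fibroblasts (FB) reach 2452 CPM of S100a4 and 5362 CPM of S100a6, CHOs stand highest for S100a1 and S100b, and ECs are lowest for S100b at 7.32 and 8.90 CPM.

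In ECs, in which Lats2 was targeted, both mutant libraries lay above both controls for all 10 members (35% of the 5873 genes tested in ECs did so, and 46.7% lay below in both). The share is given for scale only, since the members were chosen on this contrast, and S100b was below the filter on low counts. Log2 fold changes of mutants over controls are from edgeR with TMM scaling, and over the 9 members that passed the filter their median was 0.86, against 0.00 over all genes tested. This too is a description, whose direction the choice of members set. S100a1, seen in 25.7% and 22.0% of mutant and 18.7% and 19.0% of control ECs, reached the filter of 20% of cells in the mutants alone. S100a4, seen in 24.5% and 25.0% against 17.0% and 16.4%, may have done so too. Its shares are of rounded counts, whereas the filter takes any part of a count, so its control share there may be higher.

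S100a10 and Anxa2, the partners in one complex, were both higher in mutant ECs. S100a10 had 338 and 347 CPM in control ECs and 717 and 692 CPM in mutant ECs, a log2 fold change of 1.11 (standard error 0.0517). Anxa2 had 421 and 434 CPM in controls and 749 and 736 CPM in mutants, a log2 fold change of 0.86 (standard error 0.0510). The gap between the genotypes exceeds that between libraries of one genotype many times over in both.

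The other pair of partners differed more unequally. S100a11 stood at 198 and 214 CPM in control ECs and at 532 and 504 CPM in mutant ECs, with a log2 fold change of 1.40 (standard error 0.0576). Anxa1 went from 88.2 and 103 CPM to 158 and 145 CPM, with a log2 fold change of 0.73 (standard error 0.0920). S100a11 had the largest log2 fold change of the 9 members that passed the filter and Anxa1 a smaller one, although no value of Anxa1 in mutants came near the controls.

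S100a6 had 623 and 681 CPM in control ECs and 1658 and 1487 CPM in mutant ECs, a log2 fold change of 1.34 (standard error 0.0628). S100a4 had 89.5 and 107 CPM in controls and 218 and 181 CPM in mutants, a log2 fold change of 1.09 (standard error 0.0993). Of the UMIs of S100a4, 26.6% lie in per-cell counts that are not whole numbers, to which reads shared with other features contribute. The shared part itself is smaller and was not computed. It overlaps Gm42674 on the same strand, which had between 4.08 and 7.57 CPM in ECs. Among the other members, the share of UMIs in such counts was 3.30% for S100a11 and under 1% for the rest. Anxa5 had 266 and 281 CPM in controls and 407 and 415 CPM in mutants, a log2 fold change of 0.65 (standard error 0.0548).

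S100a13, S100a1 and S100b differed least in absolute level. S100a13 had 332 and 353 CPM in control ECs and 363 and 373 CPM in mutants, a log2 fold change of 0.17 (standard error 0.0546). S100a1 had 34.9 and 36.3 CPM against 41.2 and 37.4 CPM, a log2 fold change of 0.20 (standard error 0.104). S100b had 7.32 and 8.90 CPM against 8.96 and 12.0 CPM, and its groups are apart by less than 0.1 CPM.

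**Figure D2:**
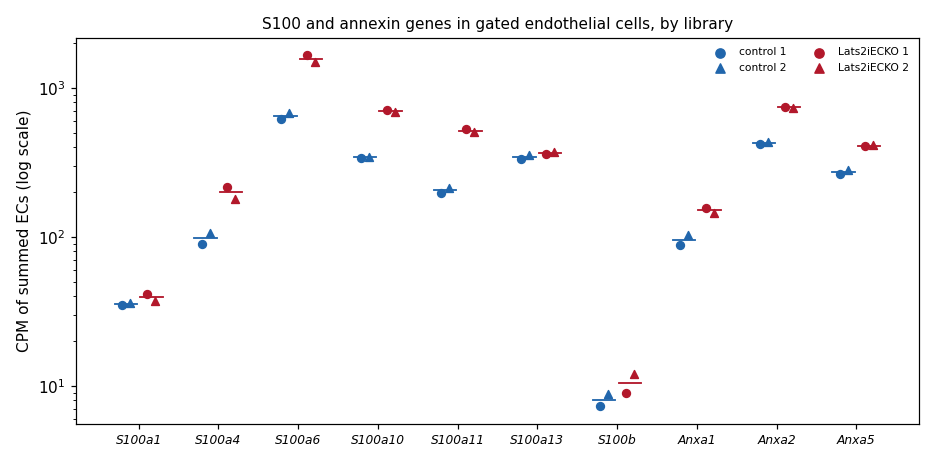
CPM of the 10 members in the summed ECs of each library, on a log axis, with the mean of each genotype as a short line. Mutant libraries (red) stand above control libraries (blue) for every member, from 1658 and 1487 CPM over 623 and 681 CPM for S100a6 down to nearly touching values for S100b.

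Other signals moved with the genotype as well. EC markers themselves summed to 7599 and 7624 CPM in mutant and 9044 and 8858 CPM in control ECs, and the median share of mitochondrial UMIs was 5.46% and 5.64% against 4.68% and 4.62%. Free RNA in droplets of 10 to 100 UMIs, taken as empty, was richer in all 10 members in mutant libraries, with 1371 and 1432 CPM of S100a6 against 513 and 535 CPM and 275 and 279 CPM of S100a4 against 92.3 and 102 CPM. Estimated free RNA made up 1.27% and 1.38% of the UMIs of mutant ECs and 2.16% and 2.09% of control ECs. By this estimate free RNA gave 17.4 and 19.7 CPM of S100a6 in mutant ECs and 11.1 and 11.2 CPM in control ECs. With it subtracted the log2 fold changes were 1.33 for S100a6, 1.08 for S100a4 and 1.40 for S100a11. Erythroid-gated barcodes of mutants, whose values are given below, held far more S100a6 than this estimate. These measures of background disagree, and which of them applies to ECs was not tested. Fibroblast markers summed to 317 and 670 CPM in mutant ECs and 191 and 278 CPM in control ECs, with 8 of 13 under 10 CPM. Erythroid markers summed to 564 and 633 CPM against 233 and 247 CPM, with 4 of 8 under 10 CPM. The BMSC sums were 1510 and 1490 CPM against 1262 and 1311 CPM. Sums of SMC markers, 347 and 393 CPM against 515 and 612 CPM, and of OB markers, 209 and 202 CPM against 460 and 846 CPM, were lower in mutant ECs. Their part in the members' values was not tested. In bulk sums of this kind, more cells with a transcript and more transcript per cell cannot be told apart. The shares of cells were read as well, but a share also rises with transcript per cell and so does not separate them either.

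After each EC was thinned to 1000 UMIs, S100a6 was seen in 55.8% (51.4% to 60.1%) and 59.1% (55.2% to 62.9%) of mutant ECs and in 31.7% (28.5% to 35.0%) and 35.1% (31.8% to 38.5%) of control ECs, with exact Clopper-Pearson intervals at 95% that cover counting error only. Without thinning, at medians of 6835 and 6545 UMIs in mutant and 5540 and 5168 UMIs in control ECs, the shares were 82.6% and 85.5% against 54.6% and 56.7%. Erythroid-gated barcodes were taken as a measure of background, although whether they express the gene themselves was not tested. At 1000 UMIs they showed it in 12.2% and 14.2% of mutant and 1.17% and 1.58% of control barcodes. Their unthinned medians were 4519 and 4285 UMIs in mutants and 6766 and 6621 UMIs in controls. The shares of ECs are above those of these barcodes in each library.

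S100a4 was seen in far fewer cells. Its share at 1000 UMIs was 13.04% (10.3% to 16.2%) and 10.5% (8.23% to 13.04%) in mutant ECs and 7.82% (6.08% to 9.88%) and 7.88% (6.12% to 9.95%) in control ECs, and the interval of mutant library 2 overlaps those of both controls, while that of mutant library 1 does not. Erythroid-gated barcodes showed it in 3.04% and 2.50% (mutants) and 0.390% and 0.226% (controls). S100b was seen in 0.567% and 0.303% of mutant and 0.733% and 0.739% of control ECs, and in 1.35% and 1.11% of mutant and 0.390% and 0.677% of control erythroid-gated barcodes. The intervals overlap in every library. With 2 to 6 such ECs per library, the shares cannot tell whether S100b in ECs as a whole is above background.

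**Figure D3:**
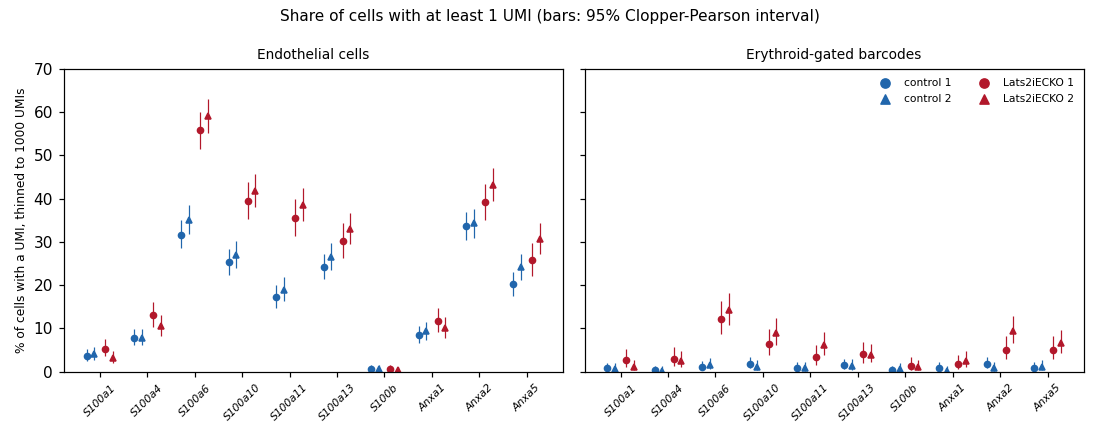
Percent of ECs (left) and of erythroid-gated barcodes (right) with at least 1 UMI of each member after thinning to 1000 UMIs, by library, with exact 95% intervals. For S100a6 mutant ECs stand at 55.8% and 59.1% and controls at 31.7% and 35.1%; erythroid-gated barcodes lie lower for most genes but are also higher in mutants.

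ECs of bone are not uniform, so the members were read in 4 subclasses gated by markers. These were metaphyseal (such as Ramp3 and Aplnr), sinusoidal (such as Stab2 and Lyve1), arterial (such as Gja4 and Sema3g) and arteriolar (Fmo2, Vwf, Tagln and Podxl). The subclasses held 65 to 227 cells per library. Sinusoidal ECs numbered 65 and 74 in mutant and 226 and 227 in control libraries, and arteriolar ECs 135 and 178 against 98 and 95, so the sums over all ECs weigh the subclasses differently in the genotypes. No test was made among subclasses.

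In metaphyseal ECs, from the capillaries next to the growth plate, the ratio of mean CPM between genotypes was the largest of the 4 subclasses for S100a10, S100a11, Anxa1, Anxa2 and Anxa5. S100a4 had 8.95 and 10.75 CPM in controls, from 12.5 and 13 UMIs, and 168 and 113 CPM in mutants. The control values lie within those of control erythroid-gated barcodes, 2.34 and 14.5 CPM, so no ratio is given, and the mutant values lie above those of mutant erythroid-gated barcodes, 36.1 and 38.2 CPM. S100a6 had 327 and 520 CPM against 1958 and 1952 CPM, and S100a11 had 159 and 195 CPM against 693 and 711 CPM. Anxa2, with 496 and 523 CPM against 1076 and 1029 CPM, and Anxa5, with 287 and 295 CPM against 545 and 582 CPM, also differed between genotypes by more than between libraries of one genotype. S100a1, S100a13 and S100b overlapped between genotypes there. The gate also uses Gpihbp1, Apln and Esm1, and the paper lists apelin among genes upregulated in mutant metaphyseal ECs. The metaphyseal gate may thus hold different cells in the genotypes, and the part of this in the values was not tested.

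Sinusoidal ECs, the fenestrated vessels of the marrow, had the lowest S100a6, with 27.8 and 116 CPM in controls and 265 and 702 CPM in mutants. Libraries of one genotype differ widely there, and mutant library 1 is close to the 206 CPM of its erythroid-gated barcodes. Control library 1 lies within the values of control erythroid-gated barcodes. The values of S100a4 in this subclass, 2.55 and 63.9 CPM in controls and 63.5 and 95.2 CPM in mutants, overlap, and control library 2 sets the upper one. S100a10 had 141 and 176 CPM against 298 and 294 CPM.

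Arterial ECs held the most S100a4 of the 4 subclasses in every library, 312 and 294 CPM in controls and 556 and 445 CPM in mutants, a ratio of means of 1.65. For S100a6 the ratio in arterial ECs was 1.21, from 1163 and 1228 CPM to 1368 and 1515 CPM. Arteriolar ECs had 1918 and 1354 CPM of S100a6 in controls and 1243 and 1295 CPM in mutants, the reverse order of the other subclasses. The paper reports Tagln and Vwf, markers of this gate, as upregulated in mutant metaphyseal ECs. The arteriolar gate may thus hold different cells in the genotypes, and the part of this in the values was not tested. S100a10 was highest in arteriolar ECs of controls, 1088 and 833 CPM, and its mutant values of 930 and 1012 CPM lay between them. Both mutants were above both controls for 7 members in metaphyseal, 8 in sinusoidal, 6 in arterial and 3 in arteriolar ECs, beside 30.7%, 23.2%, 22.6% and 25.2% of the genes tested in ECs. The 8 in sinusoidal ECs include S100b, which was not among the genes tested. Both were below for S100a1 and S100a6 in arteriolar ECs (29.2% of the genes) and for no member in metaphyseal (42.9%), sinusoidal (37.4%) or arterial ECs (38.2%). ECs that entered no subclass, 86 and 98 cells in mutants, had 3268 and 1332 CPM of S100a6 against 654 and 955 CPM in controls, and mutant library 1 stands far above the rest there.

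**Figure D4:**
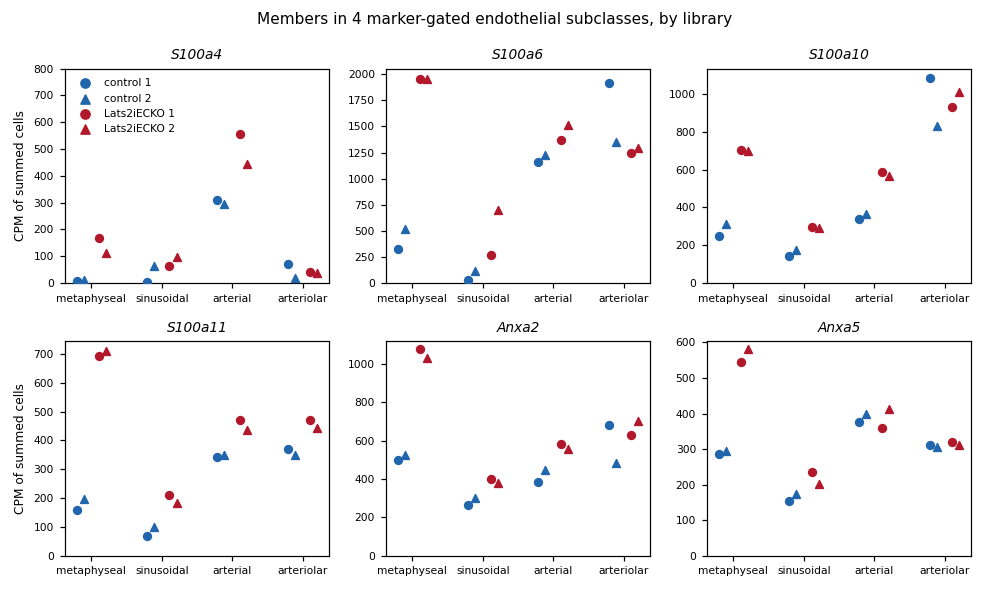
CPM of S100a4, S100a6, S100a10, S100a11, Anxa2 and Anxa5 in 4 marker-gated EC subclasses, by library, on linear axes that start at 0. In metaphyseal ECs the mutant points (red) stand well above the controls (blue), whereas in arteriolar ECs the genotypes overlap for most of these genes and S100a6 is lower in mutants.

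Most members also had higher values in mutant libraries outside the endothelium, in classes whose Cre-ERT2 level was at most 0.317 CPM in any mutant library, and in the erythroid-gated barcodes that serve as background. In the latter S100a6 had 206 and 256 CPM in mutants and 13.7 and 30.7 CPM in controls, and S100a10 had 101 and 113 CPM against 18.1 and 27.1 CPM. Anxa1 had 42.9 and 32.8 CPM against 6.17 and 5.08 CPM there, and every other member but S100b was also higher in both mutants. Erythroid markers summed to 809 and 917 CPM in mutant and 407 and 448 CPM in control BMSCs, to 468 and 566 CPM against 160 and 166 CPM in OBs, and to higher values in both mutants in CHOs, SMCs and fibroblasts. The part of these in the values of the members was not tested. Both mutants were above both controls for 8 members in BMSCs (29% of the genes tested), 8 in OBs (27.5%), 9 in CHOs (30.7%), 10 in SMCs (36.9%) and 7 in fibroblasts (22.1%). Among members that passed the filter, as the genes tested did, it was 7 of 9 in BMSCs, 7 of 8 in OBs and 9 of 10 in CHOs. In SMCs it was 9 of 9 and in fibroblasts 7 of 10. Both were below for no member in BMSCs (47.4% of the genes tested) and SMCs (37.9%), for S100b in OBs (27.2%) and CHOs (53.2%) and for S100a13 in fibroblasts (33%). S100a4, S100a10, S100a11, Anxa1, Anxa2 and Anxa5 were higher in both mutants in every one of the 6 classes, as were 5.23% of the 3555 genes that passed the filter in all 6, which S100a4 did not. In OBs S100a4 had 11.7 and 18.5 CPM in controls and 27.6 and 31.0 CPM in mutants, the latter below mutant erythroid-gated barcodes. Its shares were 3.36% and 3.41% in mutants and 1.45% and 2.01% in controls. Erythroid-gated barcodes had 3.04% and 2.50% in mutants and 0.390% and 0.226% in controls. Each share is higher in OBs, but the intervals overlap in every library. The shares thus do not settle whether OBs hold S100a4 above background at this depth. These shares are a description, as in ECs. Cell numbers moved too. BMSCs numbered 564 and 698 in mutants against 1937 and 1860, and OBs 149 and 176 against 760 and 798. CHOs numbered 1828 and 1940 in mutants against 1297 and 1332, and SMCs 422 and 468 against 271 and 278.

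In BMSCs, the stroma that supports blood stem cells, S100a4 had 9.17 and 17.9 CPM in control BMSCs and 76.4 and 67.1 CPM in mutants, a log2 fold change of 2.39 (standard error 0.201) from the fit without a filter, since it was below the filter. Erythroid-gated barcodes had 2.34 and 14.5 CPM of S100a4 in controls and 36.1 and 38.2 CPM in mutants. At 1000 UMIs its share was 4.43% (2.89% to 6.47%) and 2.87% (1.76% to 4.39%) of mutant and 0.516% and 0.376% of control BMSCs, and these intervals overlap those of the erythroid-gated barcodes given above in every library. The shares thus do not settle whether BMSCs as a whole hold S100a4 above background at this depth. Its level in CPM in mutant BMSCs lay above that of mutant erythroid-gated barcodes. In CHOs, where its shares were 13.3% and 13.97% in mutants and 4.01% and 4.95% in controls, it stood at 55.7 and 67.0 CPM in controls and at 180 and 232 CPM in mutants, with a log2 fold change of 1.83. Fibroblast markers in CHOs summed to 3555 and 3857 CPM in mutants and 2675 and 2603 CPM in controls, and their part in this difference was not tested. In fibroblasts, where it is highest, it had 2452 and 2187 CPM against 2600 and 2753 CPM, a log2 fold change of 0.25 (standard error 0.0740). S100a6 had log2 fold changes of 1.14 in BMSCs, 1.11 in CHOs, 0.81 in SMCs and 0.15 in fibroblasts, where its groups overlapped. Its 1.14 in BMSCs came from 240 and 249 CPM in controls and 559 and 477 CPM in mutants, beside the difference in erythroid-gated barcodes given above. BMSC markers in BMSCs summed to 30216 and 31415 CPM in mutants and 33997 and 34158 CPM in controls. OB markers there summed to 2376 and 2354 CPM against 3360 and 3368 CPM, and fibroblast markers to 1843 and 1867 CPM against 1707 and 1737 CPM. The part of these in the members' values was not tested. At 1000 UMIs S100a6 was seen in 25.4% and 24.1% of mutant and 15.1% and 15.6% of control BMSCs, and in 12.2% and 14.2% of mutant and 1.17% and 1.58% of control erythroid-gated barcodes.

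The metaphyseal part of the BMSCs, gated by Postn, Wif1, Limch1 and Alpl, held 44 and 57 cells in mutants and 217 and 210 in controls. S100a4 had 28.8 and 19.2 CPM there in controls and 224 and 200 CPM in mutants. In diaphyseal BMSCs it had 5.54 and 18.4 CPM against 52.6 and 38.6 CPM, near the values of erythroid-gated barcodes. S100b was higher in metaphyseal than in diaphyseal BMSCs in each of the 4 libraries, with 354 and 403 CPM against 75.4 and 82.5 CPM in controls and 338 and 393 CPM against 97.5 and 118 CPM in mutants.

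S100a10 and Anxa2 had their largest log2 fold changes in SMCs, 1.43 (standard error 0.104) and 1.196 (standard error 0.0866). S100a10 went from 80.8 and 80.1 CPM to 228 and 203 CPM, and Anxa2 from 170 and 196 CPM to 426 and 410 CPM. S100a13 was likewise widest in SMCs, from 97.4 and 93.2 CPM to 211 and 228 CPM. Beside these values, the SMC markers themselves summed to 12318 and 12690 CPM in mutants and 22976 and 24119 CPM in controls. BMSC markers in SMCs summed to 1956 and 2415 CPM against 1173 and 1095 CPM. Leukocyte markers summed to 173 and 148 CPM against 28.0 and 23.9 CPM, and OB markers were lower, 264 and 308 CPM against 515 and 506 CPM. The paper reports a strong enrichment of Myh11-negative cells in the mutant SMC cluster, so the SMC class may hold different cells in the genotypes. The part of all these in the differences was not tested. In fibroblasts S100a10 and Anxa2 had log2 fold changes of 0.31 and 0.28.

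Anxa1 had its largest log2 fold change in CHOs, 1.21 (standard error 0.0463), from 113 and 113 CPM to 253 and 239 CPM. In OBs its log2 fold change was 1.01 (standard error 0.149), from 27.0 and 26.8 CPM to 65.5 and 45.3 CPM, where the mutant libraries differ widely and where the gap in CPM is of the size seen in erythroid-gated barcodes. The shares of OBs with Anxa1 at 1000 UMIs, 6.04% and 3.41% in mutants and 3.03% and 2.76% in controls, have intervals that overlap those of erythroid-gated barcodes in all libraries but control library 2, and overlap between genotypes. Anxa5 hardly differed in CHOs, with 493 and 501 CPM in controls and 503 and 506 CPM in mutants. CHO markers summed to 43527 and 43640 CPM in mutant CHOs, against 65447 and 65633 CPM, and their part in these values was not tested.

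S100b was not higher in mutants in most classes. In CHOs, where it is best expressed of the 6 classes, it had 231 and 217 CPM in controls and 193 and 204 CPM in mutants, a log2 fold change of −0.09 (standard error 0.0468). In OBs it had 19.5 and 21.0 CPM against 19.1 and 9.66 CPM, with the mutants below the controls. In BMSCs and fibroblasts its groups overlapped. In SMCs it had 11.5 and 11.8 CPM in controls and 19.3 and 26.03 CPM in mutants, below the filter but with both mutants above both controls. The shares of SMCs with S100b have intervals that overlap those of erythroid-gated barcodes in every library. With 3 to 10 such SMCs per library, the shares do not settle whether S100b is above background there. S100a1 had 197.7 and 203.5 CPM in control CHOs and 211.6 and 211.5 CPM in mutant CHOs, and its largest log2 fold change was 0.65 in SMCs.

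**Figure D5:**
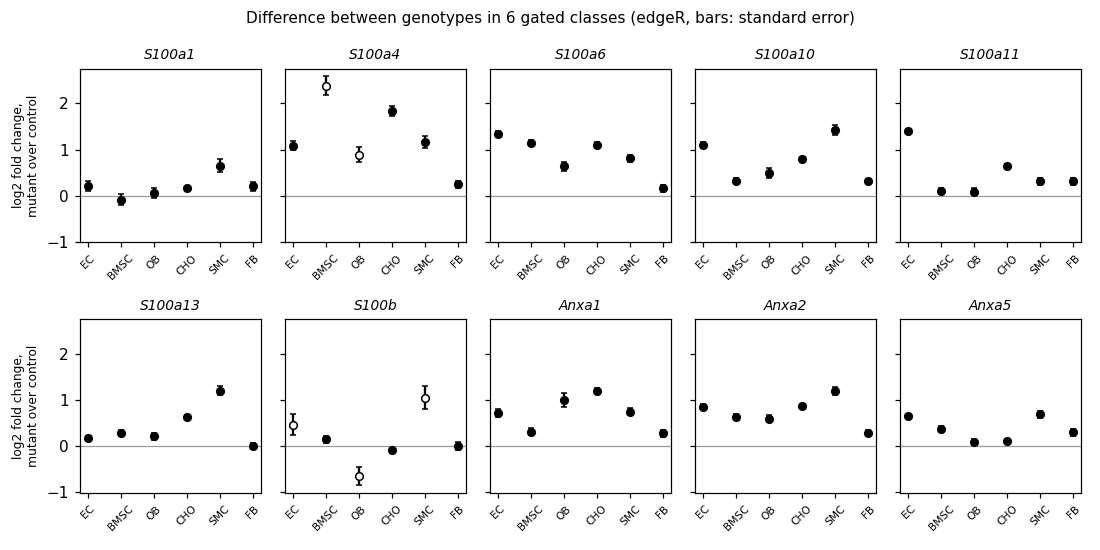
Log2 fold change of mutants over controls for each member in ECs, BMSCs, OBs, CHOs, SMCs and fibroblasts (FB), with its standard error from edgeR as a bar; open circles mark members below the filter on low counts. The 2.39 of S100a4 in BMSCs is from a gene below the filter. In fibroblasts the 10 members lie between 0.01 and 0.31, and S100b is below 0 in OBs and CHOs.

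The genes that work with these members were then tested, as 10 other S100 genes, 9 other annexins and 29 partners and receptors, a list drawn up by family and known binding but with earlier results of these data known. In ECs 22 of the 48 were expressed enough to be tested, and 9 were called higher and 3 lower at an edgeR adjusted p of at most 0.05, beside 30.6% and 30.9% of all genes tested. Anxa6, which organises cholesterol-rich membranes, had 39.3 and 39.2 CPM in control ECs and 98.4 and 106 CPM in mutant ECs (log2 fold change 1.45, edgeR adjusted p = 2.06e-11). Bsg, a surface glycoprotein that induces matrix metalloproteinases and binds S100 proteins, had 233 and 235 CPM against 510 and 440 CPM (log2 fold change 1.09, edgeR adjusted p = 3.44e-11). Anxa3 had 261 and 255 CPM against 364 and 359 CPM (log2 fold change 0.55, edgeR adjusted p = 6.82e-08).

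The other genes called higher in ECs were S100a16, Anxa4, Anxa7, Ahnak, Trp53 and Pdcd6, with log2 fold changes from 0.20 to 0.51. Ahnak is a scaffold of the Anxa2 and S100a10 complex, and Trp53 encodes the tumor suppressor p53, which S100 proteins bind. Lower were Dysf, a protein of membrane repair (log2 fold change −0.44, edgeR adjusted p = 2.49e-06), the calpain subunit Capn2 (−0.30) and Dlc1, a binding partner of S100a10 (−0.21). Anxa4 lost its call in DESeq2 (adjusted p = 0.1), without mutant library 2 (edgeR adjusted p = 0.0900) and without control library 1 (edgeR adjusted p = 0.0556). Without mutant library 1, S100a16, Dlc1 and Capn2 lost theirs (edgeR adjusted p = 0.0588, 0.0800 and 0.0758), and S100a16 also with library totals in place of TMM (edgeR adjusted p = 0.0614). Plat, the activator of plasminogen that S100a10 binds, had 53.3 and 46.5 CPM in control and 41.4 and 48.5 CPM in mutant ECs, and Myh9, the target of S100a4, had 606 and 553 CPM against 591 and 614 CPM; neither was called.

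Of receptors for S100 proteins and Anxa1, Ager had 2.55 and 2.31 CPM in control and 1.19 and 2.68 CPM in mutant ECs, and Fpr1 and Fpr2 reached at most 0.474 CPM. Tlr4 had 46.6 and 44.1 CPM against 49.6 and 47.4 CPM in ECs and was not called there. In BMSCs Tlr4 had 102 and 103 CPM against 55.1 and 63.0 CPM (log2 fold change −0.72, edgeR adjusted p = 3.04e-07), the only one of these genes called lower in that class.

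In BMSCs 6 of 19 tested genes were higher and 1 lower (23.8% and 22.2% of all genes), led by Bsg (log2 fold change 0.34) and Anxa4 (0.34). DESeq2 called 2 in all, and Anxa4 was not among them (adjusted p = 0.0888). It also lost its call without mutant library 1 (edgeR adjusted p = 0.190) and without control library 2 (edgeR adjusted p = 0.104). With 1 library left out, 3 to 6 genes were called in place of 7. Without control library 1, Anxa7, Cacybp, S100a16 and Sugt1 lost theirs (edgeR adjusted p = 0.163, 0.120, 0.101 and 0.220), as they did without control library 2 (edgeR adjusted p = 0.0715, 0.100, 0.0699 and 0.0912). Without mutant library 1, Anxa7, Cacybp and S100a16 lost theirs (edgeR adjusted p = 0.258, 0.0524 and 0.107), and without mutant library 2, Cacybp and Sugt1 (edgeR adjusted p = 0.101 and 0.234). In CHOs 13 of 21 were higher and 4 lower (32.5% and 32.4%). Bsg rose there from 415 and 432 CPM to 1193 and 1152 CPM (log2 fold change 1.56, edgeR adjusted p = 7.31e-13), and Dlc1 from 146 and 156 CPM to 283 and 288 CPM (1.01, edgeR adjusted p = 9.37e-11). Fgf1 (−0.42) and Capn2 (−0.30) had the largest decreases. With library totals in place of TMM, Pdcd6, Ppfibp1 and S100a16 lost their calls in CHOs (edgeR adjusted p = 0.434, 0.388 and 0.319), as they did with single libraries left out. They also lost them in DESeq2 (adjusted p = 0.0869, 0.0646 and 0.114).

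In SMCs partners moved in both directions. Of 23 tested, 7 were higher and 8 lower (23.9% and 23.8% of all genes). Ryr2, the calcium release channel that S100a1 modulates in heart muscle, fell from 230 and 237 CPM to 65.9 and 62.0 CPM (log2 fold change −1.87, edgeR adjusted p = 4.59e-09). Atp2a2, the calcium pump of the sarcoplasmic reticulum and also a target of S100a1, went from 538 and 538 CPM to 263 and 277 CPM (−0.99, edgeR adjusted p = 1.01e-07). Plat was higher, with 15.9 and 24.8 CPM against 55.1 and 70.9 CPM (1.64, edgeR adjusted p = 2.66e-05), and so was Bsg (0.63). Trp53 lost its call in SMCs without control library 1 or 2 (edgeR adjusted p = 0.0698 and 0.0684), and Anxa7 without mutant library 1 or control library 1 (edgeR adjusted p = 0.0739 and 0.136). Anxa7, Trp53, Plgrkt, Anxa11 and Cacybp lost their calls in SMCs in DESeq2 (adjusted p = 0.161, 0.161, 0.0564, 0.0688 and 0.0786). SMC markers were lower in mutants too, and the SMC class may hold different cells in the genotypes, as given above.

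In OBs 3 of 20 genes were called higher and none lower (6.99% and 3.55% of all genes), with Anxa7 (log2 fold change 0.37, edgeR adjusted p = 0.0375) and Dlc1 (0.36, edgeR adjusted p = 0.0217) leading, and 5 had an unadjusted p under 0.05. Without control library 1 or 2 none of the 3 was called (edgeR adjusted p = 0.304 and 0.300 for Anxa7, 0.343 and 0.180 for Dlc1), nor was Dlc1 without mutant library 1 or Anxa7 without mutant library 2 (edgeR adjusted p = 0.0601 and 0.189). In fibroblasts Bsg alone of 23 was called (0.33, edgeR adjusted p = 0.0353; 2.65% of all genes were called higher and 1.78% lower), and 7 had an unadjusted p under 0.05. Bsg lost this call without control library 1 or 2 (edgeR adjusted p = 0.252 and 0.244). DESeq2 called none of these genes in OBs or in fibroblasts.

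Over the 24 sums of 4 libraries in 6 classes, S100a6 was the gene whose log2 level was most like that of S100a4 (Pearson r = 0.975) among 7037 genes, followed by Lmna (0.954) and Atp6v1g1 (0.946). S100a10 was most like Anxa2 (0.954), followed by Ldlrad4 (0.949) and Tubb4b (0.924). For S100b they were Cmtm7 (0.976), Hectd2 (0.949) and Adgra3 (0.938). S100a11 and its partner Anxa1 had an r of 0.715. These values describe 24 points that share libraries and depth, mostly through the differences between classes.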

How the data were processed

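Long-bone stromal cells of 2 Lats2iECKO and 2 control libraries were sequenced. The authors trimmed reads with cutadapt 3.5 and aligned them with STARsolo 2.7.10a to GRCm39 (mm39 in the submitters' processing notes) with a GENCODE annotation that also held CreERT2. They deposited unfiltered expected counts (UMIs over exons and introns) per gene and barcode, not normalized, in which expectation maximization split reads that fit more than 1 gene. These are the only values used. All barcodes of the 10x list are present, and total UMIs per library are given with the results; the sampling error of a sum falls with its counts.

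The study's cell filters were applied: 1000 UMIs, 800 genes and a complexity of 0.8 as minima, 15% mitochondrial and 5% hemoglobin UMIs as maxima. A cell entered the class whose marker score (mean log CP10K per marker, scaled to the 99th percentile) was at least 1.5 times the next, with at least 3 markers counted; subclasses needed 2 markers and 1.25 times. The gate was set after marker scores were seen. Doublets were not called. A cell whose best score was under 1.5 times the next entered no class, but cells with weaker markers of another class did enter. The ratio was under 2 in 900 of 6397 CHOs, 283 of 1068 fibroblasts and 89 of 2820 ECs. Classes were rebuilt from markers, since no cell annotation was used here, and may differ from those of the study. For each class the expected counts of a library were added up, rounded and fitted with edgeR 4.0.16 (quasi-likelihood, TMM, R 4.3.3) over genes that filterByExpr keeps and that were seen in 20% or more of the cells of 1 genotype, with Benjamini-Hochberg adjustment over all genes tested. Members between genotypes were described without a test. The smallest p that an exact permutation test of 2 against 2 can give is 0.333. On simulated counts like those of ECs the fit was tested with known changes before use. Standard errors came from the log2 fold change and F; values below the filter come from a fit without it. DESeq2 1.42.0, RLE scaling, other filters and gates, subtraction of free RNA, a replicate block and single libraries left out were tried as alternatives. Promoters are from GRCm39 with GENCODE M39 starts. Python 3.11.15, numpy 2.4.6, scipy 1.17.1, pandas 2.3.3 and matplotlib 3.10.9 were used.

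The members and lists were chosen with earlier results of these data known. The genes named are all members in every class, every related gene called in ECs, the largest 2 called in each direction in other classes, the 3 genes most like S100a4, S100b and Anxa2 in level over 24 sums at 20 CPM or more, and Lats2, Cre-ERT2 and markers as checks. Plat, Myh9, Tlr4, Ager, Fpr1 and Fpr2 in ECs were named after their values were seen, as were related genes listed for a lost call.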

Additional observations from a re-analysis of the deposited data

Results flagged for a closer look

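Both mutant libraries lay above both controls in one class and below them in another for a few members, and none of these differences was tested. For S100b the log2 fold change in SMCs exceeded that in OBs by 1.71 and that in CHOs by 1.15. For S100a13 the log2 fold change in SMCs exceeded that in fibroblasts by 1.202, although the fibroblast value is 0.01 with TMM scaling and only the CPM are below those of controls. Between EC subclasses, the log2 ratio of mean CPM in sinusoidal ECs exceeded that in arteriolar ECs by 3.12 for S100a6 and by 1.06 for S100a1. The sinusoidal S100a6 of control library 1, 27.8 CPM, lies within the values of control erythroid-gated barcodes. That of mutant library 1, 265 CPM, is close to its own, so the 3.12 is uncertain in size. S100a1 rests on 14 to 40 UMIs per library in these subclasses. S100b in SMCs and OBs was below the filter on low counts. Its shares at 1000 UMIs in SMCs were 2.37% and 1.92% in mutants and 1.48% and 1.08% in controls. Their intervals overlap those of erythroid-gated barcodes in every library, so the shares do not settle whether S100b is above background there.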

How the results depend on the processing

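Across 17 settings, the log2 fold changes in ECs lay between 1.33 and 1.46 for S100a11, 1.26 and 1.41 for S100a6, 1.04 and 1.13 for S100a10, 0.95 and 1.22 for S100a4, 0.79 and 0.89 for Anxa2, 0.61 and 0.84 for Anxa1, 0.58 and 0.70 for Anxa5, 0.13 and 0.28 for S100a1 and 0.10 and 0.22 for S100a13. Sign changes against the values reported were seen for S100a1 in OBs and BMSCs, S100a11 in OBs, and S100a13 and S100b in fibroblasts. The cause of the values that follow was not tested, except that fewer samples or other genes enter by construction. Without a gene filter the members' median log2 fold change was 0.24 in BMSCs, 0.27 in OBs, 0.67 in CHOs and 0.97 in SMCs, related genes called were 1 in OBs and 3 in fibroblasts, and 2 members were higher in control ECs than OBs. With library totals in place of TMM, chosen after seeing the data, the medians were 0.79 in ECs, 0.62 in CHOs and 0.21 in fibroblasts, 3 related genes were called in fibroblasts and 1 member was lower in control ECs than OBs. That scaling moved the higher share of all calls from 49.8% to 39.9% in ECs, from 51.7% to 35.9% in BMSCs, from 50% to 35.3% in CHOs and from 59.8% to 40% in fibroblasts, and shifted the median of all genes by at most 0.09 in size. With a gate ratio of 2, also added later, the medians were 0.74 in CHOs, 0.91 in SMCs and 0.32 in fibroblasts. DESeq2 called 2 related genes in BMSCs and 0 in OBs and in fibroblasts. In fibroblasts 3 were called with the minimum of 1000 UMIs and 800 genes alone and 2 with 2000 UMIs and 10% mitochondrial. The share of ECs with S100a4 differed by 8.08 percentage points without thinning and 3.90 with it.

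With each library left out in turn, related genes called ranged from 3 to 6 in BMSCs, 0 to 2 in OBs and 0 to 2 in fibroblasts, and the members' medians from 0.23 to 0.41 in BMSCs, 0.28 to 0.43 in OBs, 0.68 to 0.76 in CHOs, 0.76 to 0.96 in SMCs and 0.23 to 0.28 in fibroblasts. A lone library is assumed to vary like the others. For the comparison of control classes this could not be run. The replicate numbers share no litter or day in the labels, and deviations of same-numbered libraries correlated at −0.06 to 0.10. With the replicate number as a block, 14 related genes were called in ECs against 12, 0 in OBs against 3 and 2 in fibroblasts against 1.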
